A study of Canis lupus familiaris with 15 samples.

Results

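ESR1 (ENSCAFG00000000430) encodes the oestrogen receptor alpha and SULT1E1 (ENSCAFG00000002878) encodes the oestrogen sulfotransferase. They were taken by their identifiers, as the receptor through which oestrogens act and the enzyme that inactivates them, and are 2 of the 23630 genes counted in the canine corpus luteum (CL). Both are among the genes that the study names from the same dogs, so the tests below are not independent evidence for them. The study asks how the transcriptome of the CL differs between its slow regression in non-pregnant dogs, its abrupt luteolysis before parturition, and luteolysis brought about by an antigestagen. RNA-Seq was performed on the CL of 15 cross-breed bitches aged between 2 and 8 years, with 1 library per dog.

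The mid-gestation group comprised 5 untreated pregnant dogs, operated on days 35 to 40 after ovulation. The antigestagen group comprised 5 pregnant dogs treated with aglepristone, a blocker of the progesterone (P4) receptor, from days 40 to 45; the dose of 10 mg/kg was given 2 times with 24 h between, and CL were taken 24 h later. The luteolysis group comprised 3 untreated pregnant dogs whose peripheral P4 was measured every 6 h from day 58, with collection once 3 consecutive values lay below 2 to 3 ng/ml. The luteal regression group comprised 2 non-pregnant dogs at day 65. Antigestagen-treated dogs thus differ from mid-gestation dogs in drug and in day, and luteal regression dogs differ from luteolysis dogs in pregnancy status and in the pace of P4 decline, so that these pairs of factors cannot be told apart. Luteolysis dogs were also later in pregnancy than mid-gestation and antigestagen-treated dogs, so that luteolysis and day cannot be told apart in those comparisons either. The labels give no site, date or run by which dogs differ. The study had approval from Giessen and from Ankara and does not state which dogs belong to which, so that site cannot be told apart from group.

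Oestrogen receptor alpha is a nuclear receptor that binds DNA after taking up oestrogen and recruits cofactors that alter transcription of its target genes. SULT1E1 transfers a sulfate group onto oestrogens, and the sulfated hormone no longer binds the receptor until a sulfatase releases it again. In the dog the CL is the source of circulating P4 throughout pregnancy, and it carries oestrogen receptors itself.

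The total count per dog ranged from 8558743 (Citir, antigestagen) to 26284315 (Kurtulus, mid-gestation), with a median of 18313707. Expression is given as CPM, counts scaled to a common library size after TMM normalization of the libraries, and as mean ± standard deviation (SD) per group. Differences between groups are log2 ratios, named as “numerator over denominator”, with a standard error (SE) from edgeR's quasi-likelihood test over all 15 dogs. Genes were called differentially expressed (DEG) at a p-value below 0.01 together with a Benjamini-Hochberg adjusted p-value below 0.1. Of the luteolysis dogs, Amy stood apart: across genes, Spearman's rho was 0.912 to 0.928 between Amy and the other luteolysis dogs and 0.976 between Kimba and Senta. Since the luteolysis dogs decide several values, results are given also without Amy, Kimba or Senta.

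ESR1 was measured in every dog with between 82 and 540 reads. At mid-gestation it was at 14.7 CPM in Nescafe, 27.7 in Turgay, 14.4 in Dardanel, 19.2 in Gold and 18.4 in Kurtulus. In the antigestagen-treated dogs it was at 25.5 CPM in Citir, 19.5 in Suzan, 21.8 in Birnur, 12 in Seran and 24.7 in Zeynep. In luteolysis it was at 6.16 CPM in Amy, 16.6 in Kimba and 5.68 in Senta, and in luteal regression at 19.2 CPM in Lissy and 27.5 in Mara. Amy and Senta therefore lay below all other dogs, whereas Kimba lay within the range of the mid-gestation and antigestagen groups. The gap inside the luteolysis group was larger than counting error, as the exact Poisson 95% intervals were 4.89 to 7.66 CPM for Amy, 4.61 to 6.90 for Senta and 15 to 18.2 for Kimba. These intervals, like those below, cover counting error only.

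By group mean, ESR1 was highest in luteal regression (23.3 ± 5.82 CPM, n = 2), followed by antigestagen (20.7 ± 5.41 CPM, n = 5), mid-gestation (18.9 ± 5.39 CPM, n = 5) and luteolysis (9.47 ± 6.15 CPM, n = 3). The first 3 groups overlapped, and their means differed by less than the SD within them. Luteolysis overlapped with mid-gestation and with antigestagen, as Kimba lay above Nescafe, Dardanel and Seran, and did not overlap with luteal regression. Between groups of 2 and 3 dogs such a separation is weak evidence. In a bulk tissue a smaller share of cells that express a gene and less RNA per cell cannot be told apart.

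**Figure D1:**
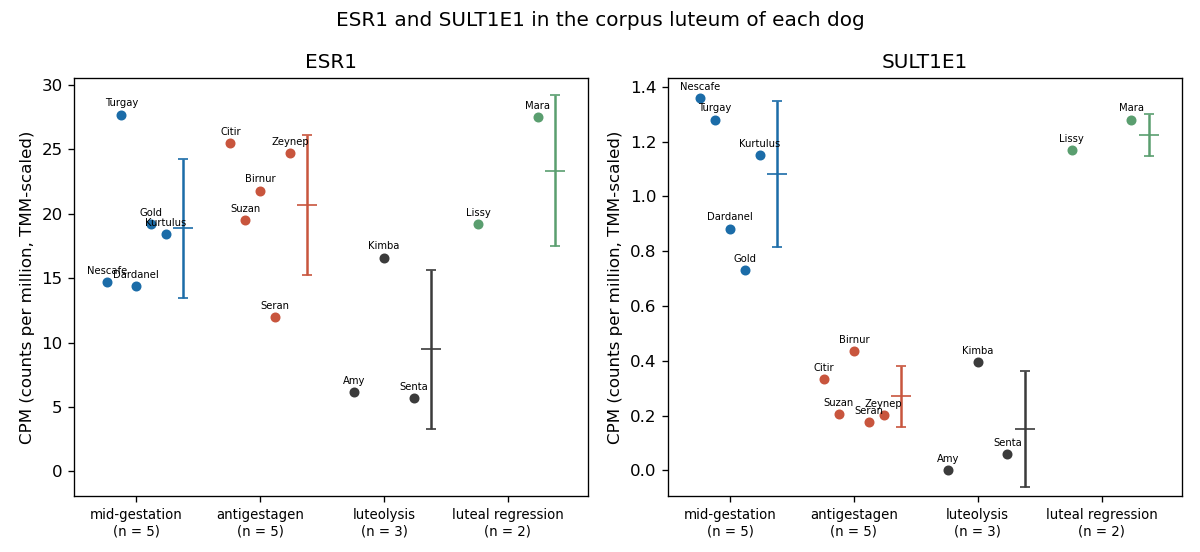
CPM of ESR1 (left) and SULT1E1 (right) in each dog, grouped by condition, with the group mean and SD as a bar to the right of the points. For ESR1 the dogs Amy and Senta lie at 6.16 and 5.68 CPM below the rest, and for SULT1E1 all mid-gestation and luteal regression dogs (0.731 to 1.36 CPM) lie above all antigestagen and luteolysis dogs (0 to 0.436 CPM).

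In “luteal regression over luteolysis” 5.11% of the 14768 genes tested were DEG. ESR1 was not, with a log2 ratio of 1.29 (SE 0.43), a 2.45-fold difference, and an adjusted p of 0.128 by edgeR's quasi-likelihood test with Benjamini-Hochberg adjustment. In “mid-gestation over luteolysis”, where 8.16% of 14669 genes were DEG, its log2 ratio was 0.99 (SE 0.36, edgeR quasi-likelihood adjusted p = 0.138). In “luteolysis over antigestagen”, where 4.75% of 14473 genes were DEG, it was −1.12 (SE 0.36, edgeR quasi-likelihood adjusted p = 0.123). The mean of ESR1 was thus lower in luteolysis than in each other group, and none of these differences passed in edgeR.

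These 3 values depended on Kimba. Without Kimba ESR1 was a DEG in all 3 comparisons, with log2 ratios of 1.98, 1.67 and −1.80 (edgeR quasi-likelihood adjusted p = 0.0383, 0.0385 and 0.0606). Without Amy they were 1.10, 0.77 and −0.89 and without Senta 1.08, 0.75 and −0.87, with edgeR quasi-likelihood adjusted p between 0.17 and 0.547. Without the antigestagen-treated dog Seran, the lowest of its group, the log2 ratio of luteolysis over antigestagen was −1.28 and passed (edgeR quasi-likelihood adjusted p = 0.0961). ESR1 passed all 3 comparisons also with DESeq2 (adjusted p = 0.0538, 0.0631 and 0.0391) and with limma-voom under quality weighting (adjusted p = 0.00553, 0.0238 and 0.0112).

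The comparisons without luteolysis dogs gave small log2 ratios for ESR1. In “mid-gestation over antigestagen” 0% of 14399 genes were DEG in edgeR's quasi-likelihood test, with 980 genes at an unadjusted p-value below 0.05, against 87 DEG with DESeq2 and 18 with limma-voom. The log2 ratio of ESR1 was −0.13 (SE 0.30, edgeR quasi-likelihood adjusted p = 0.962). In “luteal regression over mid-gestation” 0% of 14685 genes were DEG in edgeR (2073 at an unadjusted p-value below 0.05; 332 DEG with DESeq2 and 2741 with limma-voom), and ESR1 had a log2 ratio of 0.30 (SE 0.39, edgeR quasi-likelihood adjusted p = 0.728). In “luteal regression over antigestagen” 0% of 14578 genes were DEG in edgeR (2496 at an unadjusted p-value below 0.05; 920 with DESeq2 and 2408 with limma-voom), and its log2 ratio was 0.17 (SE 0.39, edgeR quasi-likelihood adjusted p = 0.841). None of these 3 differences exceeded its SE, and the last one was −0.11 without Mara.

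Natural and induced luteolysis were compared by subtracting the antigestagen effect (antigestagen over mid-gestation) from the luteolysis effect (luteolysis over luteal regression), and this was tested for all 14922 genes of the fit. In edgeR's quasi-likelihood test 0% of them were DEG, with 1869 at an unadjusted p-value below 0.05, against 495 with DESeq2 and 2549 with limma-voom. For ESR1 it was −1.42 on the log2 scale (SE 0.53, edgeR quasi-likelihood adjusted p = 0.299), −2.11 without Kimba and −1.22 without Amy. With limma-voom it was −1.75 and passed (adjusted p = 0.0149). This difference of effects in ESR1 was thus called by 1 of the 3 tools; as its effects start from different groups, it is not a comparison of levels.

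**Figure D2:**
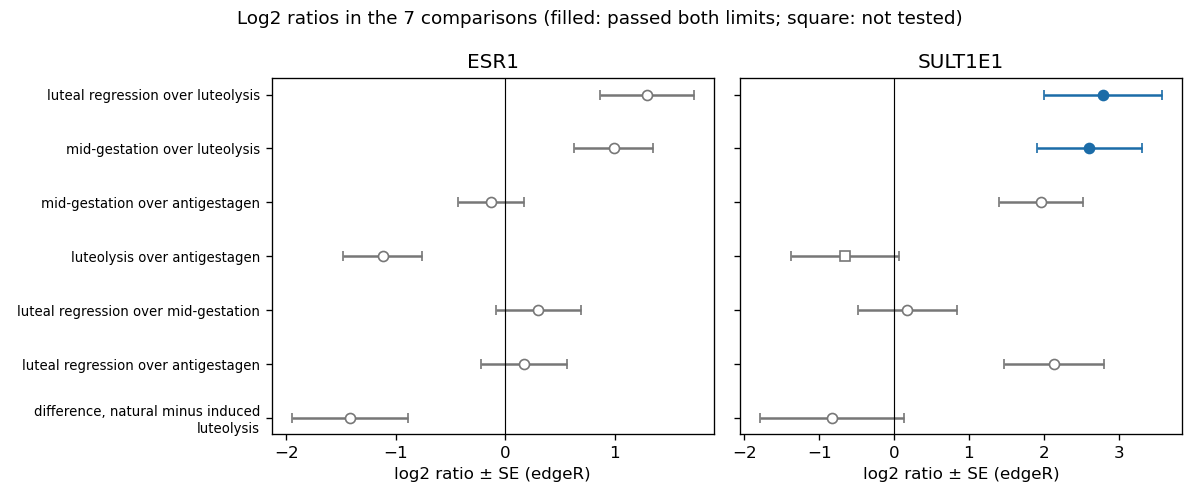
Log2 ratios of ESR1 (left) and SULT1E1 (right) in the 7 comparisons, with SE bars from edgeR. Filled points passed both limits, which only SULT1E1 over luteolysis did (2.79 and 2.61), open points did not, and the square marks the comparison with too few reads to be tested.

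SULT1E1 was a rare transcript in all dogs, with 0 to 32 reads per library. At mid-gestation 26 reads were counted in Nescafe, 25 in Turgay, 14 in Dardanel, 14 in Gold and 32 in Kurtulus, which correspond to 1.36, 1.28, 0.883, 0.731 and 1.15 CPM. In luteal regression 24 reads were counted in Lissy and 25 in Mara, or 1.17 and 1.28 CPM. These 7 dogs were close to each other, with CPM values less than 2-fold apart.

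In the antigestagen-treated dogs 3 reads of SULT1E1 were counted in Citir, 4 in Suzan, 10 in Birnur, 3 in Seran and 2 in Zeynep, or 0.333, 0.205, 0.436, 0.177 and 0.202 CPM. In luteolysis 0 reads were counted in Amy, 10 in Kimba and 1 in Senta, or 0, 0.395 and 0.0580 CPM. For the 0 of Amy the upper exact Poisson 95% limit was 0.277 CPM, and 3 reads in that library correspond to 0.225 CPM. All 8 dogs of these groups were below all 7 dogs of the other groups, and the antigestagen and luteolysis groups overlapped. The separation of single dogs was within counting error at its edge: the exact Poisson 95% interval of Gold, the lowest mid-gestation dog, was 0.399 to 1.23 CPM and that of Birnur, the highest treated dog, was 0.209 to 0.802 CPM.

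**Figure D3:**
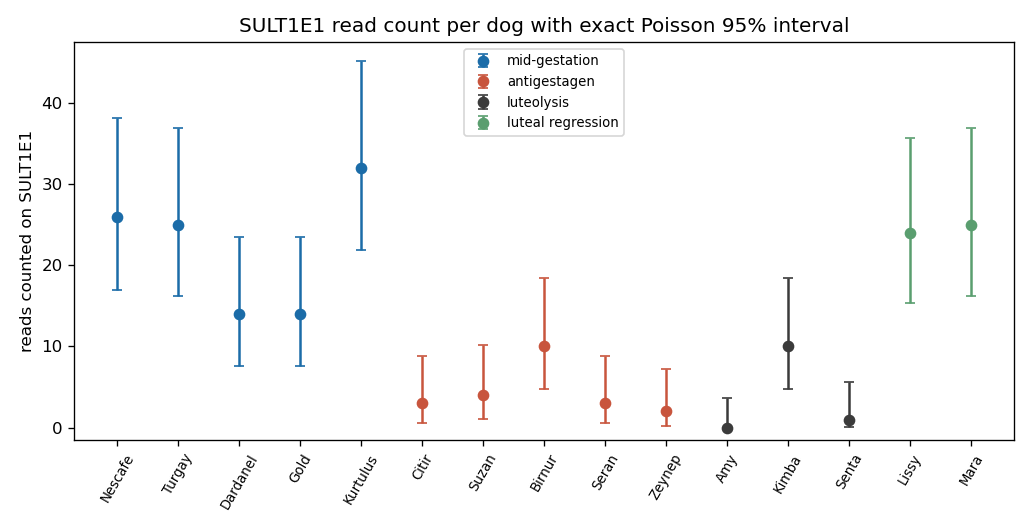
Reads counted on SULT1E1 in each dog with the exact Poisson 95% interval, which covers counting error only. Counts are not scaled for library size; mid-gestation and luteal regression dogs had 14 to 32 reads, antigestagen-treated dogs 2 to 10 and luteolysis dogs 0 to 10.

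By group mean SULT1E1 was at 1.23 ± 0.0772 CPM in luteal regression (n = 2), 1.08 ± 0.268 at mid-gestation (n = 5), 0.271 ± 0.111 after antigestagen (n = 5) and 0.151 ± 0.213 in luteolysis (n = 3). The first 2 groups overlapped, as did the last 2 through Kimba. Summed over the dogs of a group, the reads numbered 49, 111, 22 and 11, which gave 1.23 CPM (exact Poisson 95% interval 0.908 to 1.62), 1.10 (0.901 to 1.32), 0.281 (0.176 to 0.426) and 0.197 (0.0983 to 0.352). The intervals of luteal regression and mid-gestation lay above those of antigestagen and luteolysis. The shallowest libraries were those of the treated dogs Citir and Zeynep, with total counts of 8558743 and 12032776, and Birnur, Suzan and Seran had 21247518, 17165101 and 19272885. The part of library depth in the low reads was not tested.

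SULT1E1 was a DEG in both comparisons of an undisturbed or slowly regressing CL with luteolysis. Its log2 ratio was 2.79 (SE 0.79) for luteal regression over luteolysis and 2.61 (SE 0.70) for mid-gestation over luteolysis, or 6.91-fold and 6.10-fold, with adjusted p of 0.0833 and 0.0496 by edgeR's quasi-likelihood test with Benjamini-Hochberg adjustment. All dogs of the higher group lay above all luteolysis dogs. In groups this small a full separation is weak evidence. The receptor cofactor PELP1 was also separated in luteal regression over luteolysis, at a log2 ratio of 0.18 (edgeR quasi-likelihood adjusted p = 0.652). The share of all genes separated in this way is not given here. The ratios rank 43rd and 52nd from the top among the genes tested in these comparisons. Among the pooled reads they were 6.23 (95% interval 3.20 to 13.3) and 5.56 (2.99 to 11.5), with counting error as the only error included.

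The gene reached the mean count of 10 that was needed for a test only through the groups in which it was higher. Without this filter the log2 ratio of luteal regression over luteolysis was 2.80 and no longer passed (edgeR quasi-likelihood adjusted p = 0.11), while that of mid-gestation over luteolysis passed at 2.62 (edgeR quasi-likelihood adjusted p = 0.0673). Without Senta neither passed, at 2.48 and 2.27 (edgeR quasi-likelihood adjusted p = 0.298 and 0.289). Without Amy both passed, at 2.37 and 2.16 (edgeR quasi-likelihood adjusted p = 0.0711 and 0.0426), and without Kimba both passed at 4.98 and 4.80 (edgeR quasi-likelihood adjusted p = 0.0383 and 0.0296). As Amy and Senta together had 1 read, the ratios without Kimba are over a group at the floor and give no firm size. The place past the limit rested on Senta. With 1 luteal regression dog left, that comparison did not pass (edgeR quasi-likelihood adjusted p = 0.392 without Lissy and 0.376 without Mara). It was also lost, at adjusted p between 0.1 and 0.106, without Birnur, Nescafe, Dardanel, Gold or Kurtulus, who enter it only through the shared estimate of the spread.

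In “mid-gestation over antigestagen” the log2 ratio of SULT1E1 was 1.96 (SE 0.56), or 3.89-fold, with higher values in all mid-gestation dogs than in all treated dogs. The adjusted p was 0.509 in edgeR's quasi-likelihood test, where no gene passed, although SULT1E1 ranked 90th of 14399 genes by p-value and 37th by log2 ratio. It passed with DESeq2 (log2 ratio 1.99, adjusted p = 0.0771) and did not with limma-voom. In “luteal regression over antigestagen” it was 2.14 (SE 0.67, edgeR quasi-likelihood adjusted p = 0.19), again without overlap, and passed with DESeq2 (2.18, adjusted p = 0.0522) and limma-voom (1.86, adjusted p = 0.0133). Without Nescafe, whose description carries the group number of the treated dogs, the first of these ratios was 1.86. The sign was the same with each dog left out, from 1.83 to 2.25 in the first and from 2.04 to 2.43 in the second comparison.

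Between the groups of similar level, the log2 ratio of SULT1E1 was 0.18 (SE 0.66, edgeR quasi-likelihood adjusted p = 0.916) for luteal regression over mid-gestation. Luteolysis over antigestagen was not tested, since the mean count was below 10 in both groups; the pooled reads gave a ratio of 0.7 with a 95% interval from 0.307 to 1.51. Of the 11 luteolysis reads 10 came from Kimba, while Amy and Senta lay below every treated dog, and the log2 ratio was −2.84 without Kimba and −0.20 without Amy. The luteolysis effect minus the antigestagen effect did not pass for SULT1E1, at −0.83 on the log2 scale (SE 0.96, edgeR quasi-likelihood adjusted p = 0.761), −0.40 without Amy and −3.02 without Kimba. For SULT1E1 the comparison of luteolysis with antigestagen thus rests on Kimba.

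Set side by side, ESR1 and SULT1E1 differed in the antigestagen group. In treated dogs ESR1 was at the level of mid-gestation (log2 ratio −0.13, mid-gestation over antigestagen), whereas SULT1E1 was lower than at mid-gestation in every dog (1.96). In luteolysis both were low in Amy and Senta and higher in Kimba. Whether the difference between mid-gestation and antigestagen is unequal for the 2 genes was not tested.

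Across the 15 dogs, log2 CPM of ESR1 and SULT1E1 had a Pearson's r of 0.652 (permutation p = 0.00805, adjusted p = 0.0161 over 2 relations, permutation test with 100000 draws) and a Spearman's rho of 0.439 (permutation p = 0.104). Without Amy and Senta, the dogs farthest from the median of ESR1, r was 0.131, so that the relation rests on these dogs. Within groups, after subtracting the group means, r was 0.703 (permutation p = 0.0639, adjusted p = 0.0639 in the permutation test) and rho was 0.614 (permutation p = 0.0644). Without Kimba and Seran, the farthest dogs on that scale, r was 0.480. No relation between the genes was therefore shown beyond the luteolysis dogs.

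**Figure D4:**
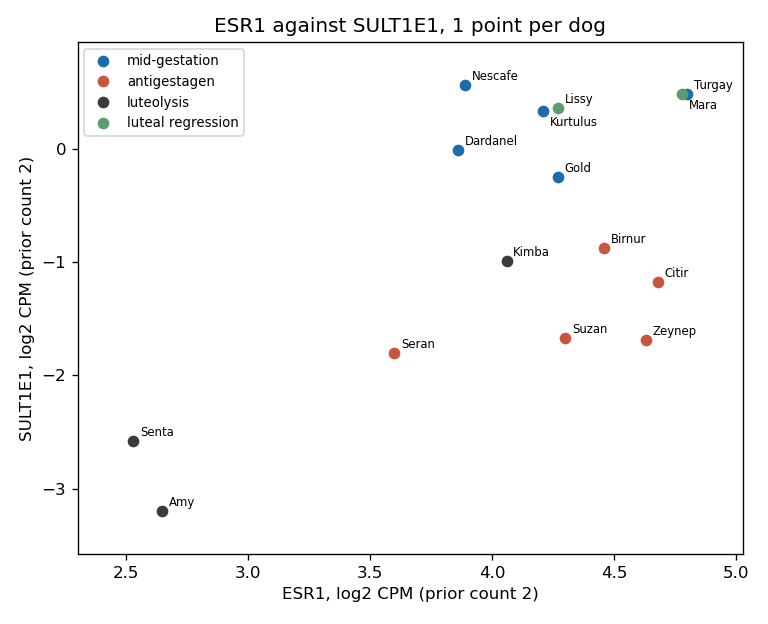
Log2 CPM (prior count of 2) of SULT1E1 against ESR1, 1 point per dog, coloured by group. Amy and Senta lie apart at the lower left; among the other 13 dogs r was 0.131, with antigestagen-treated dogs below mid-gestation dogs at similar ESR1.

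Further genes of the oestrogen pathway were looked up in lists. Names come only from the authors' tables of genes that passed their p-value limit in these dogs, so that the members with an identifier are a selected part of each list and their counts are not independent evidence. Of the oestrogen receptors ESR1, ESR2 and GPER1, 1 of 3 had an identifier, and of other steroid and oestrogen-related receptors 3 of 8. Among the latter ESRRA (ENSCAFG00000014455), an orphan receptor that binds similar DNA sites, was a DEG in the comparisons with 5.11% and 8.16% of all genes DEG. It was at 17.9 ± 1.71 CPM in luteolysis against 9.79 ± 1.63 at mid-gestation and 8.64 ± 0.330 in luteal regression, with log2 ratios of −0.87 (mid-gestation over luteolysis, edgeR quasi-likelihood adjusted p = 0.0275) and −1.05 (luteal regression over luteolysis, edgeR quasi-likelihood adjusted p = 0.0611). The direction is opposite to that of ESR1, and all luteolysis dogs lay above both groups. The glucocorticoid receptor NR3C1 and the mineralocorticoid receptor NR3C2 were not DEG in any of the 7 comparisons in the edgeR fit over all dogs; for luteal regression over luteolysis they were in 9 and 2 of 22 alternative fits. The log2 ratios of these genes for luteal regression over luteolysis were 0.63 and 1.04 (edgeR quasi-likelihood adjusted p = 0.102 and 0.153). Over the 3 genes the median log2 ratio was 0.63 in this comparison, against −0.05 for all genes tested.

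Of the genes of oestrogen synthesis 2 of 9 had an identifier. CYP17A1 (ENSCAFG00000010279), which forms androgens, the precursors of oestrogens, passed in no comparison in the edgeR fit over all dogs, and of 22 alternative fits in 1 for mid-gestation over antigestagen, 1 for mid-gestation over luteolysis, 2 for luteal regression over luteolysis and 4 for luteal regression over antigestagen. Like SULT1E1 it was higher in all mid-gestation dogs (268 to 809 CPM) than in all treated dogs (27.1 to 205 CPM), with a log2 ratio of 2.27 (SE 0.47, edgeR quasi-likelihood adjusted p = 0.305). HSD17B12 (ENSCAFG00000006702), a ketosteroid reductase also active on fatty acids, was lower in luteal regression (146 ± 18.5 CPM) than in luteolysis (361 ± 114 CPM). The log2 ratio was −1.31 (edgeR quasi-likelihood adjusted p = 0.0873) and passed in 12 of 22 alternative fits. HSD17B12 was at 384 ± 86 CPM at mid-gestation and 397 ± 142 after antigestagen. Luteal regression over these groups gave −1.40 and −1.45 (edgeR quasi-likelihood adjusted p = 0.319 and 0.154), so its level was lowest in luteal regression. Aromatase (CYP19A1) had no identifier in these tables.

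Of the genes of oestrogen inactivation and transport 5 of 17 had an identifier, and SULT1E1 was the only DEG among them in the edgeR fit over all dogs, in the comparisons with 5.11% and 8.16% of all genes DEG. HSD17B2 (ENSCAFG00000019977), which oxidises oestradiol to oestrone, had few reads like SULT1E1, with 1.02 ± 0.713 CPM at mid-gestation, 0.238 ± 0.195 after antigestagen, 0.332 ± 0.281 in luteolysis and 1.15 ± 0.0393 in luteal regression. Its log2 ratio was 2.14 (SE 0.75, edgeR quasi-likelihood adjusted p = 0.613) for mid-gestation over antigestagen, with overlap between the groups. CYP1B1, which hydroxylates oestrogens, was at 371 ± 214 CPM in luteolysis and 431 ± 33.4 in luteal regression, against 219 ± 71.7 at mid-gestation and 174 ± 79.7 after antigestagen. Its luteolysis mean rested on Amy (616 CPM, against 220 in Kimba and 276 in Senta). The exporter ABCG2 ranged from 12.9 CPM (antigestagen) to 20.4 CPM (luteolysis) by group mean, and the importer SLCO4A1 from 0.445 CPM (mid-gestation) to 1.60 CPM (luteolysis). CYP1B1 and ABCG2 passed in 2 of 22 alternative fits each for luteolysis over antigestagen, and SLCO4A1 in 2 of 21 for mid-gestation over luteolysis. For luteal regression over antigestagen CYP1B1 passed in 2 of 22 and HSD17B2 in 1 of 21. CYP1B1 also passed in 1 of 22 for luteal regression over mid-gestation. ABCG2 passed in 1 of 22 for luteal regression over luteolysis and in 1 of 21 for the difference of effects.

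Of the cytosolic sulfotransferases 2 of 11 had an identifier, SULT1E1 and SULT1C2 (ENSCAFG00000002041). SULT1C2 was at 1.17 ± 1.28 CPM at mid-gestation, 1.62 ± 1.70 after antigestagen, 0.102 ± 0.118 in luteolysis and 0.882 ± 0.349 in luteal regression. Both genes were thus lowest in luteolysis. After antigestagen the mean of SULT1C2 rested on Zeynep (4.64 CPM, against 0.667 to 1.08 in the other treated dogs), and its log2 ratio of mid-gestation over antigestagen took either sign in the alternative fits, from −1.16 to 0.40. Its log2 ratio was 3.51 for mid-gestation over luteolysis and −3.97 for luteolysis over antigestagen (edgeR quasi-likelihood adjusted p = 0.122 and 0.109). The luteolysis dogs had 5 reads of it together, 0 to 4 each, so these ratios give no firm size. In the alternative fits they ranged from 2.2 to 5.08 and from −5.53 to −3.06, and passed in 2 and 1 of 21. Members of this family are similar in sequence, so reads could be shared among them, and the counts do not separate strands, so that an overlapping antisense transcript could not be told from the gene.

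Of the cofactors and chaperones of the receptor 6 of 22 had an identifier, and 2 were DEG in “mid-gestation over luteolysis” (8.16% of all genes) and in “luteolysis over antigestagen” (4.75%). CITED2 (ENSCAFG00000000285), a transcriptional coregulator, was higher at mid-gestation and after antigestagen (89.8 ± 17.6 and 122 ± 50.2 CPM) than in luteolysis (36.1 ± 18.4 CPM), with log2 ratios of 1.32 for mid-gestation over luteolysis and −1.76 for luteolysis over antigestagen (edgeR quasi-likelihood adjusted p = 0.0671 and 0.0396). TFAP2C, a transcription factor, was at 0.704 ± 0.401 CPM in luteolysis and had 0 reads in all treated dogs. Against a floor of 3 reads over that group, its pooled level in luteolysis (41 reads, 0.734 CPM) was 19.1-fold higher, which leaves out the spread of the luteolysis dogs. The edgeR log2 ratio for luteolysis over antigestagen was 6.72 (edgeR quasi-likelihood adjusted p = 0.0396). With 0 reads in the treated dogs this ratio gives no firm size. TFAP2C reached the mean count needed for a test only through luteolysis, at 13.7 reads per dog, the group in which it was higher, and was a DEG without that filter too. For mid-gestation over luteolysis its log2 ratio was −3.65 (edgeR quasi-likelihood adjusted p = 0.062), and of 21 alternative fits it passed in 13 here and in 19 for luteolysis over antigestagen. The other 4, among them the coactivator NCOA1 and the RNA helicase DDX17, were not DEG in the edgeR fit over all dogs. For luteal regression over luteolysis NCOA1 was a DEG in 4 and DDX17 in 3 of 22 alternative fits. DDX17 ranged from 758 ± 191 CPM in luteolysis to 1170 ± 35.0 in luteal regression.

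Of genes known as oestrogen-responsive in other tissues 9 of 28 had an identifier, and those that passed moved in both directions. In “luteal regression over luteolysis” 2 were higher (GREB1 and ADCY9) and 2 lower (CA12 and AREG), with a median log2 ratio of 0.46, where 5.11% of all genes tested were DEG. In “mid-gestation over luteolysis” 1 was higher (ADCY9) and 2 lower (CA12 and AREG), with a median of 0.23, beside 8.16% of all genes. In “luteolysis over antigestagen” 2 were higher (CA12 and AREG) and 1 lower (ADCY9), with a median of −0.55, beside 4.75% of all genes. The medians of all genes tested were −0.05, −0.02 and 0.02. In the edgeR fit over all dogs 0 of these genes passed in the other comparisons. Each gene passed there in at most 3 alternative fits per comparison. CA12 and ADCY9 each passed in 3 of 21 for the difference of effects. GREB1 passed in 3 of 22 for luteal regression over mid-gestation.

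GREB1 (ENSCAFG00000003579), a cofactor of ESR1 and one of its best known targets, was at 650 ± 49.0 CPM in luteal regression, 301 ± 57.6 at mid-gestation, 296 ± 97.2 after antigestagen and 283 ± 76.4 in luteolysis. Its log2 ratio was 1.20 for luteal regression over luteolysis (edgeR quasi-likelihood adjusted p = 0.0818), while that of mid-gestation over luteolysis was 0.09 (edgeR quasi-likelihood adjusted p = 0.894). GREB1 was therefore highest in luteal regression, with no overlap with any other group, and did not separate the other 3 groups. AREG (ENSCAFG00000003075), a ligand of the epidermal growth factor receptor, was at 39.2 ± 44.8 CPM in luteolysis, with 2.25 CPM in its lowest dog, and at 1.23 ± 0.286 at mid-gestation, with a log2 ratio of −4.98 (edgeR quasi-likelihood adjusted p = 0.0108) that ranged from −5.54 to −3.52 in the alternative fits. The carbonic anhydrase CA12 (ENSCAFG00000016990) was at 111 ± 68.5 CPM in luteolysis and 19.3 ± 6.86 at mid-gestation, with a log2 ratio of −2.53 (edgeR quasi-likelihood adjusted p = 0.0089). ADCY9, an adenylate cyclase, was at 55.6 ± 6.86 CPM in luteolysis, against 85.2 ± 11.9 at mid-gestation (log2 ratio 0.62, edgeR quasi-likelihood adjusted p = 0.0387). MYC and PRLR, which with GREB1 had the highest mean CPM of this list, were not DEG in the edgeR fit over all dogs. Their log2 ratios for luteolysis over antigestagen were −1.46 and −0.86 (edgeR quasi-likelihood adjusted p = 0.171 and 0.1). They passed there in 2 and 8 of 22 alternative fits.

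**Figure D5:**
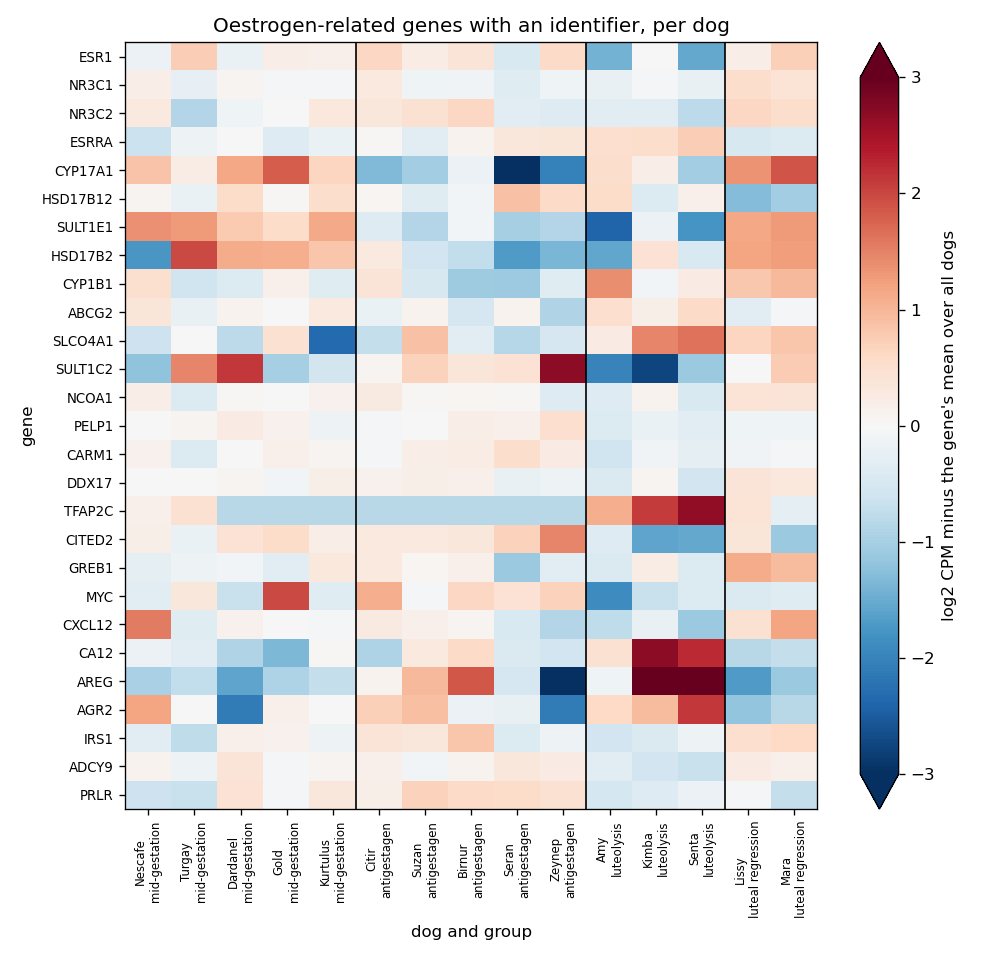
Log2 CPM of the oestrogen-related genes with an identifier in each dog (columns, ordered by group), minus the mean of the gene over all dogs; red is higher and blue is lower. ESR1 is lowest in Amy and Senta, whereas SULT1E1 is below its mean in all luteolysis and antigestagen-treated dogs.

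The calls of these lists and of the cell type markers below changed with single dogs, as did those of all genes. Without Senta, 0 of 10 list genes were still DEG in “luteal regression over luteolysis”, where the DEG among all genes went from 754 to 5. In “mid-gestation over luteolysis” 2 of 11 (CA12 and CD248) were still DEG without Senta, with 112 in place of 1197 among all genes. In “luteolysis over antigestagen” 1 of 7 (CD248) was still a DEG without Senta and 2 of 7 (TFAP2C and CD248) without Kimba, with 6 and 229 in place of 687 among all genes. Without Lissy or Mara 0 of 10 were still DEG in “luteal regression over luteolysis”, with 0 and 1 among all genes.

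Markers of the cell types in the CL were set beside the 2 genes. Of the markers listed for steroidogenic luteal cells 0 of 8 had an identifier, so that these cells were not followed by them. Of the endothelial markers 3 of 8 had one (PECAM1, VWF and TEK). Their summed level, with VWF the most abundant over all dogs but PECAM1 in Senta, was 365, 798 and 718 CPM in the luteolysis dogs Amy, Kimba and Senta and 231 and 243 CPM in Lissy and Mara. It was 531, 215, 435, 403 and 534 CPM in Nescafe, Turgay, Dardanel, Gold and Kurtulus, and 377, 381, 566, 775 and 452 CPM in Citir, Suzan, Birnur, Seran and Zeynep. PECAM1 and TEK were lower in luteal regression than in luteolysis (log2 ratio −1.86 and −1.34, edgeR quasi-likelihood adjusted p = 0.0904 and 0.0854). PECAM1 was also lower at mid-gestation (−1.24, edgeR quasi-likelihood adjusted p = 0.0906). PECAM1 passed in 9 of 22 alternative fits in each comparison, and TEK in 13 of 22. The direction is opposite to that of SULT1E1 and of the means of ESR1. Over the 15 dogs Pearson's r of PECAM1, TEK and VWF was −0.668, −0.682 and −0.16 with ESR1. With SULT1E1 it was −0.476, −0.571 and −0.243. Within groups it was −0.365, −0.494 and −0.0857 with ESR1 and 0.204, 0.0329 and 0.406 with SULT1E1.

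Of the fibroblast markers 3 of 5 had an identifier (COL1A1, COL3A1 and PDGFRA). Nearly all of their sum came from the collagens. COL3A1 was the most abundant over all dogs but not in each, as Nescafe had 4140 CPM of COL1A1 and 3670 of COL3A1. The sum was 1120, 2190 and 754 CPM in Amy, Kimba and Senta and 1950 and 2830 in Lissy and Mara. It was 7930, 1760, 2770, 5280 and 4030 CPM in Nescafe, Turgay, Dardanel, Gold and Kurtulus. In Citir, Suzan, Birnur, Seran and Zeynep it was 2250, 4970, 4420, 2810 and 1520 CPM. COL1A1 and COL3A1 were higher at mid-gestation than in luteolysis (log2 ratio 2.09 and 1.44, edgeR quasi-likelihood adjusted p = 0.0641 and 0.0962). The groups overlapped for both genes, and COL1A1 passed in 16 and COL3A1 in 8 of 22 alternative fits. For this sum the order of the dogs was not that of SULT1E1, since the treated dogs Suzan and Birnur were above Turgay and Dardanel. PDGFRA, a small part of the sum and not a DEG in edgeR, had the order of groups of SULT1E1, with 190 ± 9.99 CPM in luteal regression, 107 ± 17.5 at mid-gestation, 74.5 ± 34.7 after antigestagen and 73.3 ± 34.4 in luteolysis. The last 2 of these means differed by far less than their SD. Unlike for SULT1E1, all luteal regression dogs lay above all mid-gestation dogs. Over the 15 dogs Pearson's r of PDGFRA, COL1A1 and COL3A1 with SULT1E1 was 0.735, 0.481 and 0.588, and within groups 0.59, 0.308 and 0.388. With ESR1 it was 0.474, 0.427 and 0.46 over the dogs, and 0.488, −0.000597 and 0.125 within groups.

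CD248, the 1 of 6 markers of pericytes and smooth muscle with an identifier, was at 4.50, 5.02 and 4.58 CPM in Amy, Kimba and Senta and at 7.38 and 7.34 in Lissy and Mara. It was at 23.5, 12.1, 16.7, 23.2 and 19.1 CPM in Nescafe, Turgay, Dardanel, Gold and Kurtulus and at 12.9, 18.5, 19.7, 25.8 and 19.7 in Citir, Suzan, Birnur, Seran and Zeynep. CD248 was lower in luteolysis than at mid-gestation (log2 ratio 2.01, mid-gestation over luteolysis) and than after antigestagen (−2.04, luteolysis over antigestagen), and unlike SULT1E1 it was similar after antigestagen and at mid-gestation.

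Of the macrophage markers 2 of 6 had an identifier (MRC1 and AIF1), with sums, mostly MRC1, of 113, 222 and 140 CPM in Amy, Kimba and Senta and 55.6 and 60 in Lissy and Mara. The sums were 133, 59.7, 135, 86.2 and 133 CPM in Nescafe, Turgay, Dardanel, Gold and Kurtulus and 132, 114, 108, 206 and 106 in Citir, Suzan, Birnur, Seran and Zeynep. MRC1 was lower in luteal regression than in luteolysis (log2 ratio −1.47, edgeR quasi-likelihood adjusted p = 0.0854). Of the neutrophil markers 2 of 4 had an identifier (S100A9 and CSF3R), and 0 were DEG in the edgeR fit over all dogs. For luteal regression over luteolysis, with 5.11% of all genes DEG, their log2 ratios were −3.47 and −3.91 (edgeR quasi-likelihood adjusted p = 0.116 and 0.117). Each passed there in 3 of 22 alternative fits, and in 2 of 22 for luteal regression over antigestagen. CSF3R passed in 3 of 22 for mid-gestation over luteolysis, and S100A9 in 1 of 21 for the difference of effects. The sum of S100A9 and CSF3R was 2.85 CPM in Amy, 67.3 in Kimba and 31.6 in Senta. Amy and Senta, the dogs with low ESR1, thus differed in it. It was 4.4 and 0.718 CPM in Lissy and Mara, 4.41, 8.73, 7.07, 30 and 7.87 in Nescafe, Turgay, Dardanel, Gold and Kurtulus, and 35.1, 15.3, 16.3, 18.5 and 29.2 in Citir, Suzan, Birnur, Seran and Zeynep. Of the lymphocyte markers 1 of 7 (CD3E, 0.585 to 2.00 CPM by group mean) and of granulosa cells and oocytes 1 of 6 (FSHR) had an identifier. FSHR was higher after antigestagen (1340 ± 441 CPM) than in luteolysis (635 ± 189 CPM), with a log2 ratio of −1.08 for luteolysis over antigestagen (edgeR quasi-likelihood adjusted p = 0.0743). This passed in 13 of 22 alternative fits. FSHR was abundant in every dog, from 461 to 1940 CPM, and whether it marks granulosa cells or oocytes in these samples was not tested. No marker with an identifier was at 0 in any dog. The part of these cell types in the levels of ESR1 and SULT1E1 was not tested.

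Among 2385 named genes with a mean of at least 5 CPM, those whose log2 CPM over the 15 dogs was most like ESR1 were BCHE (Pearson's r 0.915), GZF1 (0.871), GATA4 (0.870), ADCK3 (0.861) and RNF216 (0.854). Least like it were TMEM150C (−0.855), YWHAQ (−0.830) and RAB22A (−0.813). BCHE, the butyrylcholinesterase, was at 23.9 ± 5.88 CPM in luteolysis against 48.2 ± 8.39 at mid-gestation, 43.0 ± 7.58 after antigestagen and 54.0 ± 12.3 in luteal regression. GATA4, a transcription factor, was at 69.7 ± 16.5 CPM in luteolysis against 111 ± 17.0, 96.7 ± 17.2 and 122 ± 6.24 CPM in these groups. Like ESR1, both were lowest in luteolysis, and within groups their r with ESR1 was 0.865 and 0.824.

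The genes most like SULT1E1, among 2386, were CRISPLD2 (Pearson's r 0.910), ANKRD10 (0.883), PLCL2 (0.873), CABLES1 (0.870) and EPHB3 (0.864), and least like it were RGL2 (−0.888), ZFYVE27 (−0.857) and TRNAU1AP (−0.844). CRISPLD2, a secreted protein, was at 734 ± 229 CPM in luteal regression, 479 ± 124 at mid-gestation, 249 ± 76.6 after antigestagen and 201 ± 81.4 in luteolysis, the order of groups found for SULT1E1. Within groups its r with SULT1E1 was 0.709. RGL2 ran the other way, with 101 ± 8.16, 103 ± 9.09, 127 ± 9.66 and 142 ± 6.46 CPM in the same groups and an r within groups of −0.415. These genes were picked for their likeness out of many and share the libraries and their depth, so that no p-value is given.

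With 2 luteal regression and 3 luteolysis dogs, 1 library each and no second set of dogs, single dogs decide whether ESR1 and SULT1E1 pass in the comparisons with luteolysis, and the comparisons share dogs. In groups this small a lack of overlap between dogs is weak evidence for any gene named, and its share over all genes is not given. SULT1E1 was seen with 0 to 32 reads, and the luteolysis dogs differed among themselves, which limits any comparison of its low groups. No gene lengths were used, so that levels are not compared between genes except to name the markers with most reads in a sum. Names were available for 2967 of the 14922 genes of the fit, all from genes that the study lists at its p-value limit, which leaves out ESR2, GPER1 and aromatase. RNA levels say nothing of receptor protein, sulfotransferase activity or oestrogen concentration, which were not measured in these files.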

How the data were processed

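The deposited file holds the raw count of reads per Ensembl gene in each CL library, which the authors obtained from unstranded, poly-A selected, single-end 125 bp reads without normalization. The submitters' processing notes name bcl2fastq 1.8.4, STAR 2.5.1b, featureCounts and the genome build CanFam3.1. Counts of at least 10000 (3148 values) are rounded to 4 significant digits. Of the 23630 genes 4296 had no read. ESR1 and SULT1E1 were taken by identifier, and members and gene lists were chosen with earlier results of these data known; 1 listed gene was left out of a list afterwards.

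Dogs were grouped by the condition in their labels; the description of Nescafe gives the group number of the antigestagen-treated dogs, and title and condition, which say mid-gestation, were followed. The third luteal regression dog counted by the study was not analysed here. The 14922 genes whose mean count reached 10 in some group were fitted over all 15 dogs in edgeR 4.0.16 (R 4.3.3), with TMM scaling and a mean per group, and tested two-sided by quasi-likelihood where 1 of the compared groups reached that mean. P-values were adjusted by Benjamini-Hochberg over all genes tested, and calls needed p below 0.01 and adjusted p below 0.1, the study's limits. Log2 CPM used a prior count of 2. Correlations were tested by 100000 permutations, within groups for centred values (numpy 2.4.6). The fit was tested on simulated data.

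Gene names came from the study's additional files, of which only identifiers and symbols were used; 2967 of the 14922 genes had a name. The text names ESR1 and SULT1E1, members of the receptor, synthesis, inactivation and sulfotransferase lists, of other lists the members that passed in some comparison and the 3 of highest mean CPM, and the 5 most and 3 least similar named genes. Alternatives were DESeq2's size factors in edgeR, DESeq2 1.42.0 (Wald test), limma 3.58.1 (voom with quality weights), no filter, a mean count of at least 50, an adjusted p below 0.05, the compared groups alone, a prior count of 0.5 for correlations, and each dog left out. No sequences or coordinates were used.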

Additional observations from a re-analysis of the deposited data

Results flagged for a closer look

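No value of ESR1 or SULT1E1 lay far from the others of its group by Dixon's test at the 95% level, which was applied to the groups of 5 dogs and not to luteolysis or luteal regression. Among the 111 gene and group pairs tested for the genes of the lists and the most similar genes, 13 had such a dog, or 11.7%. For independent, normally spread values chance gives about 1 in 20. These pairs share the same dogs and include genes picked for likeness, so that no excess can be read from this share. In the antigestagen group these were SLCO4A1 in Suzan (1.23 CPM), SULT1C2 in Zeynep (4.64 CPM), CITED2 in Zeynep (209 CPM), TEK in Seran (143 CPM), BCHE in Seran (29.8 CPM) and GATA4 in Seran (66.6 CPM). The low BCHE and GATA4 of Seran stood beside the lowest ESR1 of that group (12 CPM). Both genes were picked for their likeness to ESR1 over the same dogs, so this is not separate evidence. They are also counted among the 13 pairs. At mid-gestation they were CARM1 in Turgay (16 CPM), MYC in Gold (394 CPM), S100A9 in Gold (16 CPM), CSF3R in Gold (13.9 CPM), CXCL12 in Nescafe (80.9 CPM), CABLES1 in Nescafe (30.4 CPM) and EPHB3 in Nescafe (19.7 CPM). The causes were not tested.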

How the results depend on the processing

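For ESR1 and SULT1E1 the log2 ratios kept their calls in 74 of the alternative fits that used all dogs or the compared groups alone, while 10 became stronger and 4 weaker. With each dog left out in turn, 197 kept their calls, 4 became stronger and 9 weaker. All 9 were SULT1E1 over luteolysis, without Senta for mid-gestation and otherwise for luteal regression. The 197 include SULT1E1 in luteolysis over antigestagen, which was not tested. They also include comparisons in which no gene passed in the edgeR fit over all dogs. ESR1 passed the limits with DESeq2 and with limma-voom for luteal regression over luteolysis (1.33 and 1.54), mid-gestation over luteolysis (1.01 and 1.17) and luteolysis over antigestagen (−1.14 and −1.39). For ESR1 the luteolysis effect minus the antigestagen effect passed with limma-voom (−1.75).

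SULT1E1 no longer passed for luteal regression over luteolysis without a filter on low counts (2.80), at an adjusted p below 0.05 (2.79, unchanged) and when only the compared groups were fitted (2.77). For mid-gestation over luteolysis it failed in the last of these fits (2.63). For mid-gestation over antigestagen it passed with DESeq2 (1.99), and for luteal regression over antigestagen with DESeq2 (2.18) and limma-voom (1.86). With a mean count of at least 50 SULT1E1 dropped out and has no value.

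With 1 dog left out, the log2 ratio of ESR1 ranged from 1.01 to 1.98 for luteal regression over luteolysis, from 0.75 to 1.67 for mid-gestation over luteolysis and from −1.80 to −0.87 for luteolysis over antigestagen. That of SULT1E1 ranged from 2.37 to 4.98 for luteal regression over luteolysis and from 2.16 to 4.80 for mid-gestation over luteolysis; the upper ends are without Kimba, where luteolysis had 1 read. With 1 luteal regression dog left out, the remaining dog was assumed to vary like the dogs of the other groups.

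The correlation of ESR1 with SULT1E1 across dogs ranged from 0.494 (without Amy) to 0.732 with 1 dog left out. Within groups r was 0.707 with DESeq2's size factors, where the permutation p fell below 0.05, and ranged from 0.325 (without Kimba) to 0.776 (without Nescafe). Of these fits 26 with a dog left out were classed as the same, 3 as stronger and 1 as weaker. As these ranges show, the same does not mean an equal r. The number of DEG was the most variable result. As the limit for a move is not stated, the same need not mean an equal number of DEG. With a dog left out the number of DEG was classed as moved in 31 fits and as the same in 74. In the other alternatives it was classed as moved in 23 and as the same in 25. For luteal regression over luteolysis it ranged from 0 to 1593 (without Amy), and for mid-gestation over luteolysis from 112 (without Senta) to 2434 (without Amy). The causes of these shifts were not tested. No paired analysis was possible because each dog appears in 1 group only.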
